A study of Mus musculus with 8 samples.

Results

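The extracellular matrix and remodeling genes were followed in cultured undifferentiated spermatogonia (A_undiff) treated with AGX51 or vehicle. Members were taken by gene name alone: collagens, laminins, nidogens, fibrillins, fibulins, emilins, thrombospondins, the Sparc, Lox and Adamts families, Mmp and Timp genes, and Fn1, Tnc, Postn, Dcn, Lum, Bgn, Vcan and Hspg2. This gave 111 of the 17167 genes listed, split into 18 basement membrane genes, 10 fibrillar collagens, 20 other collagens, 9 adhesive and matricellular genes, 4 matrix proteoglycans, 14 elastic fibre and crosslinking genes, 11 matrix metalloproteinases, 3 of their inhibitors, 16 ADAMTS proteases, 4 ADAMTS-like genes and 2 genes that match only by name. A_undiff, which include the spermatogonial stem cells, had been derived from adult wild-type mouse testes by selection for CD9 and expanded on mitotically inactivated mouse embryonic fibroblasts with GDNF, bFGF and EGF. Feeder cells were depleted by attachment to plastic, and the non-adherent cells were plated on Geltrex, a basement membrane extract. Each of 4 cultures from separate mice was then given AGX51, which binds ID proteins and keeps them from their E-protein partners, at 80 µM, or DMSO as vehicle, and was harvested after 20 h. This made 4 AGX51 and 4 vehicle libraries, numbered by culture. The sample labels write the dose as 80 mM and the strain as CBA/J, whereas the study's design and methods give 80 µM and C57BL/6J.

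The extracellular matrix is the protein and sugar scaffold that cells secrete around themselves. Basement membranes are thin sheets of laminin and type IV collagen networks, bridged by nidogens and the proteoglycan perlecan. In the testis such a sheet underlies the seminiferous epithelium, and spermatogonia sit on it. Fibrillar collagens form the cables of connective tissue and are typical products of fibroblasts and other mesenchymal cells, including the feeder cells used here. Metalloproteinases and ADAMTS proteases cut matrix proteins, and TIMPs block these enzymes.

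Levels are given as CPM, read counts scaled by the TMM-adjusted size of each library, not divided by gene length, so that they compare libraries and not genes. Totals were 4303318 to 8441399 counts in AGX51 libraries and 8330176 to 9586105 counts in vehicle libraries. Member genes took 0.575% to 1.04% of the counts in AGX51 libraries and 0.437% to 0.706% in vehicle libraries. AGX51 was compared with vehicle by edgeR's quasi-likelihood test, and calls required both an adjusted p (Benjamini-Hochberg) below 0.05 and a change of more than 1.5-fold. Log2 fold changes are given ± their standard error. Over the 14428 genes tested, 1236 were called higher (8.57%) and 1432 lower (9.93%). With library totals in place of TMM these shares were 6.6% and 12.1%, and among all calls the part called higher was 46.3% with TMM and 35.2% with totals.

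Most matrix genes were not called, and those called higher after AGX51 included the adhesive and matricellular genes Sparc, Fn1, Tnc, Postn and Sparcl1, the small proteoglycan genes Dcn and Bgn, and the type VI collagen genes Col6a1 and Col6a2. Of the 111 members, 91 were tested, of which 14 were called higher (15.4%), beside 8.57% of all tested genes, and 5 lower (5.49%), beside 9.93%. The other 72 were not called. The median log2 fold change of the tested members was 0.24, against 0.00 for all tested genes, with 56 members above 0 and 35 below. All 14 genes called higher were higher in 4 of 4 cultures, and all 5 called lower were lower in 4 of 4 cultures, though the calls came from these same libraries. Of all tested genes, 27.1% were higher and 27.1% lower in 4 of 4 cultures, beside 45.1% and 13.2% of tested members. These counts are descriptions, and no test was made of the list as a whole. In bulk RNA, fewer cells of a type and less RNA per cell cannot be told apart.

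**Figure D1:**
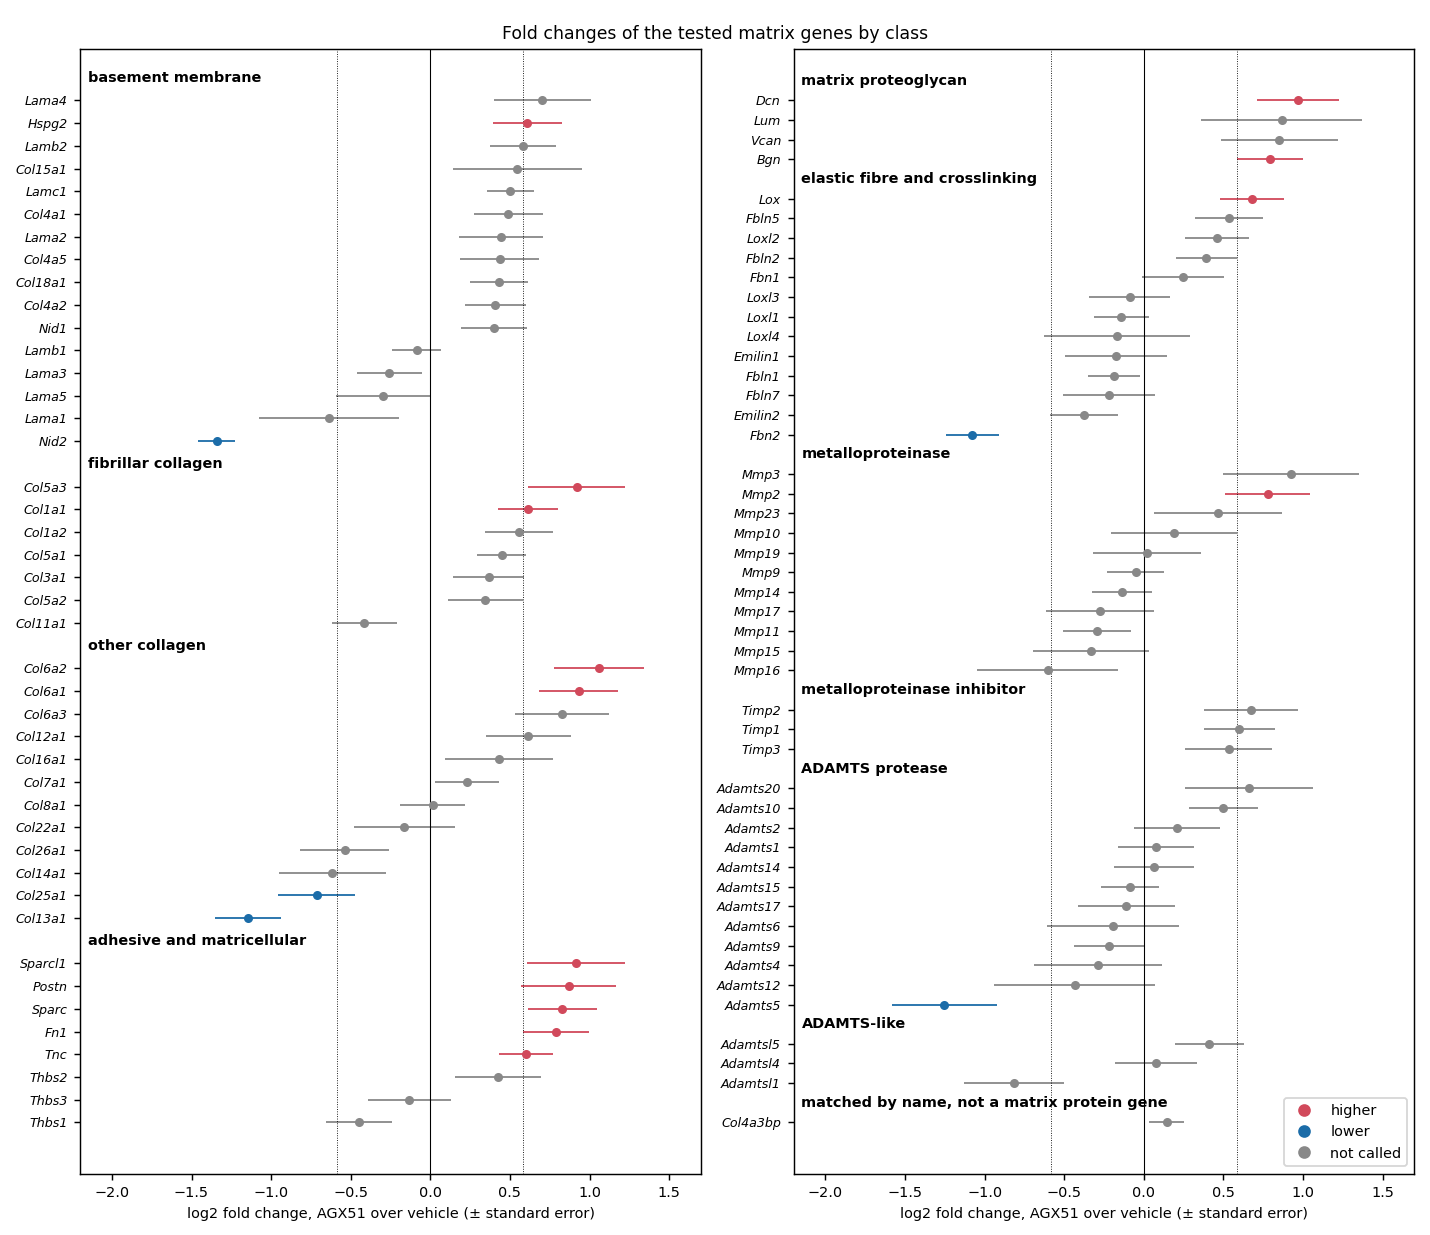
Log2 fold change of AGX51 over vehicle with its standard error for 90 of the 91 tested members, grouped by class; dotted lines mark a fold of 1.5 in either direction. The 14 genes called higher are red, the 5 called lower are blue and the 71 plotted genes that were not called are grey, with most proteoglycan, matricellular and basement membrane points right of 0.

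The number of calls moved with single libraries. The count called higher was 5 without AGX51 replicate 4, 6 without vehicle replicate 1, 9 without vehicle replicate 3 and 25 without vehicle replicate 4, while the count called lower stayed at 4 or 5. It was 9 with upper quartile scaling. A stricter test against the fold of 1.5 itself (glmTreat) called 3 members lower (Nid2, Fbn2 and Col13a1) and 0 higher, while 36 members had an unadjusted p under 0.05 in the test against no change (39.6% of tested members, beside 42% of all tested genes). In 2 members all 4 AGX51 libraries lay above all 4 vehicle libraries (Fn1 and Col6a2), beside 14.8% of all tested genes. In 4 members all AGX51 libraries lay below all vehicle libraries (Nid2, Fbn2, Col13a1 and Col25a1), beside 15.5% of all tested genes.

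Culture 4 stood apart in matrix RNA with either treatment. Summed over the 111 members, the level was 5706, 7289, 6901 and 11159.9 CPM in AGX51 libraries 1 to 4, against 4378, 5535, 5181 and 7048 CPM in vehicle libraries 1 to 4. The sum was thus higher with AGX51 in each culture, by a ratio of 1.30 to 1.58, and highest in culture 4 within each treatment. Culture 4 had the highest value in both groups for 54.9% of tested members, against 15.7% of all tested genes, and for 11 of the 14 members called higher. With both libraries of culture 4 left out, 88 members were tested, of which 12 were called higher and 4 lower. Of these 12, 10 were among the 14 genes above, while Col6a3 and Col12a1 were added and Col1a1, Col5a3, Hspg2 and Tnc were no longer called.

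Fibroblast RNA was followed with 7 defining markers that are not among the members (Pdgfra, Pdgfrb, Prrx1, Twist1, Twist2, Cdh11 and Ddr2). Ddr2 is also counted below as a matrix receptor. Their summed level was 88.8, 103, 98.9 and 142 CPM in AGX51 libraries 1 to 4, against 101, 94.5, 113 and 149.6 CPM in vehicle libraries 1 to 4. This sum, too, was highest in culture 4, but it was lower with AGX51 in 3 of 4 cultures, at a ratio of 0.878 to 1.09. Of the 7 markers, 2 were called lower, Prrx1 (log2 fold change -1.12, adjusted p = 0.0196) and Twist1 (-0.70, adjusted p = 0.00119), which both encode transcription factors. The other 5 were not called: Ddr2 (0.50), Cdh11 (0.38), Twist2 (0.06), Pdgfrb (0.04) and Pdgfra (-0.11). Ddr2 and Cdh11 were higher with AGX51 in each culture. Log2 fold changes of 4 markers thus lay above 0 and of 3 below, with a median of 0.04. The sum mixes these directions. Mean levels with AGX51 against vehicle were 20.4 against 33.4 CPM for Twist1 and 7.11 against 15.6 CPM for Prrx1. They were 43.8 against 31.0 CPM for Ddr2, 13.6 against 10.5 CPM for Cdh11 and 13.1 against 14.2 CPM for Pdgfra. Pdgfrb (6.26 against 6.05 CPM) and Twist2 (3.85 against 3.73 CPM) differed little. The lower sum therefore does not describe all 7 markers. In the wider list of 22 fibroblast markers, 19 were tested, and 1 (Tagln, an actin-binding protein of contractile cells, log2 fold change 0.65, adjusted p = 0.0245) was called higher and the same 2 lower. The summed level of the wider list was higher with AGX51 in 3 of 4 cultures, at ratios of 1.08, 0.867, 1.24 and 1.18 in cultures 1 to 4, where the 7 defining markers gave 0.880, 1.09, 0.878 and 0.946. Acta2, Tagln and Cald1 have the highest levels in the wider sum. Their means were 1734, 967 and 733 CPM in AGX51 libraries, against 1540, 618 and 871 CPM in vehicle libraries. Acta2 is also a peritubular myoid marker. With the mean of the 7 markers as a covariate, 30 members were called higher and 5 lower, beside 9.8% of all tested genes higher and 10.9% lower. This mean includes Prrx1 and Twist1, which were themselves called lower with AGX51. The fit with the covariate therefore cannot separate fibroblast RNA from treatment.

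Other markers also moved with treatment. The 8 spermatogonial markers summed to 764 to 996 CPM in AGX51 libraries, against 1352 to 1705 CPM in vehicle libraries, and 3 of them (Dazl, Gfra1 and Etv5) were called lower. Dazl has the highest level in this sum, at a mean of 349 CPM in AGX51 libraries, against 815 CPM in vehicle libraries. The other 5 were not called, at log2 fold changes of -0.15 for Sall4, -0.18 for Ddx4, -0.22 for Ret, -0.25 for Lin28a and -0.49 for Zbtb16. Of the markers of other testis cells, Amh, Gata4, Cldn11, Dhh, Fshr and Tsx for Sertoli cells and Adgre1, Csf1r and Ptprc for macrophages are not among the genes listed. The 3 listed Sertoli markers (Sox9, Wt1 and Rhox5) were not called. Of the 2 listed macrophage markers, Cd68, a lysosomal protein, was called higher (log2 fold change 0.85, adjusted p = 0.00169), and Lyz2, lysozyme, was not (-0.30, adjusted p = 0.6); their sum was at ratios of 0.872, 0.923, 1.08 and 1.06 in cultures 1 to 4. Star was the 1 listed gene of 6 Leydig markers and was called higher at 4.88 ± 1.32 CPM in AGX51 libraries, against 2.95 ± 0.428 CPM in vehicle libraries (mean ± SD, n = 4 each). Endothelial Kdr was called lower (log2 fold change -2.57, adjusted p = 0.00014), at a low level of 0.993 ± 0.376 CPM in AGX51 libraries, against 5.74 ± 1.39 CPM in vehicle libraries. The other 3 tested endothelial markers, Pecam1 (-0.24), Egfl7 (-0.28) and Emcn (0.19), were not called (adjusted p = 0.572, 0.162 and 0.765). The 5 peritubular myoid markers were not called. The part of cell composition in the matrix values was not tested.

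**Figure D2:**
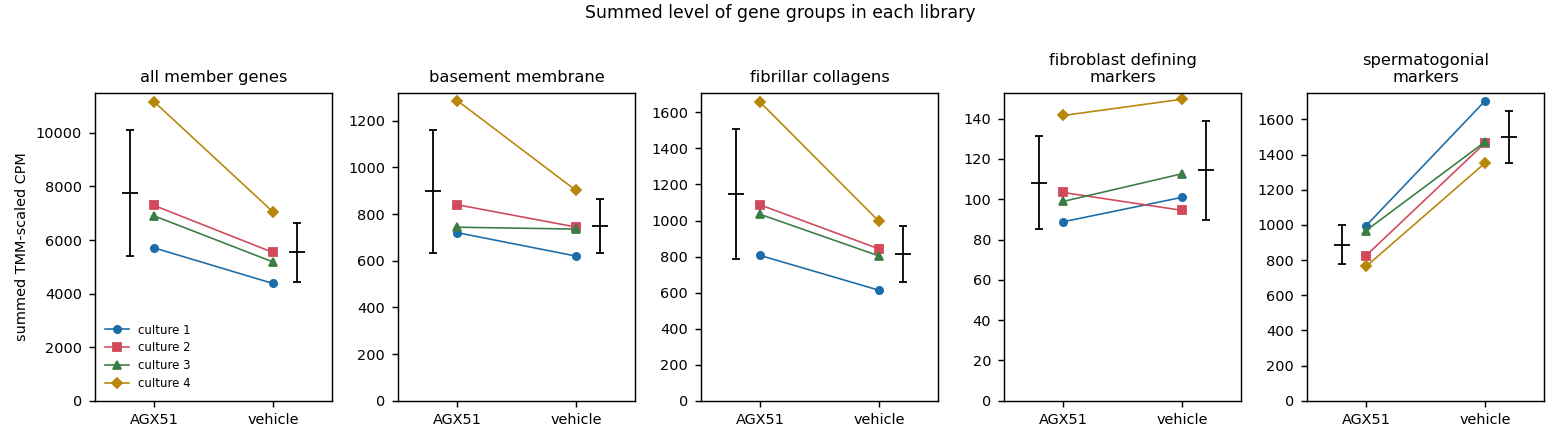
Summed TMM-scaled CPM of all members, basement membrane genes, fibrillar collagens, the 7 fibroblast defining markers and the 8 spermatogonial markers in each library; lines join the AGX51 and vehicle library of a culture, and bars show mean ± SD. The member sums lie higher with AGX51 in each culture. The fibroblast marker sums lie at 88.8 to 142 CPM with AGX51 and 94.5 to 149.6 CPM with vehicle, and they include Prrx1 and Twist1, both called lower.

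Among the 17 tested basement membrane genes, 1 was called higher (Hspg2), 1 lower (Nid2) and 15 were not called; the median log2 fold change was 0.43. Nid2 encodes nidogen 2, which bridges laminin and type IV collagen, and it gave the lowest fold change of all members. It had 35.2, 29.9, 34.1 and 30.5 CPM in AGX51 libraries 1 to 4, against 84.5, 88.9, 90.0 and 66.2 CPM in vehicle libraries 1 to 4. All AGX51 libraries lay well below all vehicle libraries, with little spread among them (32.4 ± 2.59 against 82.4 ± 11.1 CPM, mean ± SD, n = 4 each; log2 fold change -1.34 ± 0.12, adjusted p = 9.99e-06). Nid2 was called lower under every alternative tried. Its paralog Nid1, which makes the same kind of bridge, had 150.4, 143, 147 and 284 CPM in AGX51 libraries, against 106, 133, 144 and 166 CPM in vehicle libraries. Nid1 was not called (log2 fold change 0.40 ± 0.21, adjusted p = 0.159): 3 of its AGX51 libraries lay within the vehicle range and library 4 lay far above it. On GRCm38, Nid2 spans chr14:19751265-19811787 on the plus strand, and its exons share bases with Rtraf on the other strand.

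Hspg2 encodes perlecan, the heparan sulfate proteoglycan of basement membranes. It had 24.7, 33.3, 22.0 and 36.8 CPM in AGX51 libraries 1 to 4, against 13.4, 27.0, 15.9 and 20.3 CPM in vehicle libraries 1 to 4. The groups overlapped, since vehicle library 2 lay above AGX51 libraries 1 and 3, and the value sat at the threshold (log2 fold change 0.61 ± 0.22, adjusted p = 0.0492). Leaving out AGX51 replicate 2 or 4 or vehicle replicate 1, 3 or 4 ended this call, as did leaving out both libraries of culture 4, upper quartile scaling or scaling by library totals.

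The laminins, the trimers that start basement membrane assembly, did not move as a block. Lamc1, the gamma chain shared by most laminins, had 24.1, 29.7, 29.8 and 36.7 CPM in AGX51 libraries, against 20.6, 20.0, 19.4 and 25.1 CPM in vehicle libraries; it was higher in 4 of 4 cultures and passed the adjusted p but not the fold (log2 fold change 0.50 ± 0.15, adjusted p = 0.0212). Lamb2, the beta chain of many adult basement membranes, did likewise (log2 fold change 0.58 ± 0.21, adjusted p = 0.0492), although culture 3 went the other way. Lamb1, the other common beta chain, had 72.1, 83.6, 74.5 and 116 CPM in AGX51 libraries, against 76.6, 88.9, 90.4 and 112 CPM in vehicle libraries, and its log2 fold change was -0.08 ± 0.15 (standard error). The alpha chains spread on both sides of 0, at log2 fold changes of 0.70 for Lama4, 0.44 for Lama2, -0.26 for Lama3, -0.30 for Lama5 and -0.64 for Lama1, and none was called (adjusted p = 0.0975 to 0.474). Lama4 was called higher with culture as a block (log2 fold change 0.69, adjusted p = 0.0046).

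Type IV collagen, the network former of basement membranes, was measured through 3 tested chains. Col4a1 had 209, 269, 232 and 422 CPM in AGX51 libraries, against 157, 192, 178 and 281 CPM in vehicle libraries. Col4a2, whose chain assembles with that of Col4a1, had 92.1, 128, 104 and 192 CPM in AGX51 libraries, against 81.0, 94.6, 98.2 and 115 CPM in vehicle libraries. Both genes were higher with AGX51 in 4 of 4 cultures and neither was called (log2 fold change 0.49 ± 0.22, adjusted p = 0.104 for Col4a1, and 0.41 ± 0.19, adjusted p = 0.123 for Col4a2). With culture as a block, both passed the adjusted p but not the fold (log2 fold change 0.47, adjusted p = 0.000222 for Col4a1, and 0.37, adjusted p = 0.00313 for Col4a2). Col4a5, an X-linked type IV chain, was likewise higher in 4 of 4 cultures and not called (log2 fold change 0.44 ± 0.25, adjusted p = 0.204). The multiplexins Col18a1 and Col15a1, basement membrane collagens with heparan or chondroitin sulfate chains, had log2 fold changes of 0.43 and 0.55 and were not called (adjusted p = 0.0918 and 0.328).

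Col4a1 and Col4a2 lie head to head with starts 21 bases apart, and so their start regions are shown as a pair. In the RefSeq windows of GRCm38.p6 that run from 250 bases before to 50 bases after each start, Col4a1 is at chr8:11312777-11313076 on the minus strand and Col4a2 at chr8:11312555-11312854 on the plus strand. Capitals mark the 78 bases that both windows hold (chr8:11312777-11312854), read on opposite strands.
Col4a1: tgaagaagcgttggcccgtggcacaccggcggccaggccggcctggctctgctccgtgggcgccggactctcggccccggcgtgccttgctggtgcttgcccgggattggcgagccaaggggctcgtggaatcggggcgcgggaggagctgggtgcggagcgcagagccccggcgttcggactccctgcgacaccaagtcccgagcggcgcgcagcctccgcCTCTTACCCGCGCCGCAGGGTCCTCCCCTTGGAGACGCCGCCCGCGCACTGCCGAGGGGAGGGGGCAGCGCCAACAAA
Col4a2: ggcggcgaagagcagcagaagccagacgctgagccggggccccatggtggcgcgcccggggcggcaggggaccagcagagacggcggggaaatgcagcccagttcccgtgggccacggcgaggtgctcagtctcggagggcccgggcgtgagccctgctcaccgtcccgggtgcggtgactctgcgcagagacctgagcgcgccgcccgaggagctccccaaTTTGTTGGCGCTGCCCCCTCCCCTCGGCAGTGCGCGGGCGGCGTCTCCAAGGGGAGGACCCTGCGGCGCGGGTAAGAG
The annotated exons of both genes overlap at this site. The sources used here do not say if counting was stranded, so reads from the overlap could count for either gene.

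Of the 7 tested fibrillar collagens, 2 were called higher (Col1a1 and Col5a3) and 5 were not called; the median log2 fold change was 0.45. Col1a1 encodes the alpha 1 chain of type I collagen, the main cable of connective tissue. It had 184, 259, 238 and 382 CPM in AGX51 libraries 1 to 4, against 137, 175, 191 and 193 CPM in vehicle libraries 1 to 4. AGX51 library 1 lay within the vehicle range and the other AGX51 libraries above it (log2 fold change 0.61 ± 0.19, adjusted p = 0.0249). With culture as a block the log2 fold change was 0.58 (adjusted p = 0.000128), just under the fold of 1.5, so that the call ended; it also ended without AGX51 replicate 4, without vehicle replicate 1, without both libraries of culture 4, with limma-voom, and with upper quartile or total scaling. Col1a2, the partner chain of type I collagen, had 424, 553, 564 and 907 CPM in AGX51 libraries, against 309, 409, 407 and 539 CPM in vehicle libraries. The libraries of Col1a2 overlapped in the same way, and it was not called (log2 fold change 0.56 ± 0.21, adjusted p = 0.062). With culture as a block, Col1a2 passed the adjusted p but not the fold (log2 fold change 0.53, adjusted p = 0.00033).

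Col5a3 encodes a chain of type V collagen, which sits inside type I fibrils and sets their width. It had 11.1, 7.98, 15.4 and 24.5 CPM in AGX51 libraries 1 to 4, against 7.46, 5.11, 10.8 and 8.33 CPM in vehicle libraries 1 to 4. Each culture was higher with AGX51, and culture 4 most so, while the groups overlapped (log2 fold change 0.92 ± 0.31, adjusted p = 0.0363). The call of Col5a3 was lost without AGX51 replicate 3 or 4, without vehicle replicate 1, 2 or 4 and without culture 4. Its partner chains were not called: Col5a1 passed the adjusted p but not the fold (log2 fold change 0.45 ± 0.15, adjusted p = 0.0419), and Col5a2 passed neither (log2 fold change 0.35 ± 0.24, adjusted p = 0.287). Col3a1, type III collagen of soft tissue, had 52.4, 56.5, 74.5 and 108 CPM in AGX51 libraries, against 36.6, 59.6, 60.1 and 71.0 CPM in vehicle libraries (log2 fold change 0.37 ± 0.22, adjusted p = 0.236). Col11a1, a fibrillar chain best known from cartilage, was the 1 tested fibrillar gene below 0, lower in 4 of 4 cultures and not called (log2 fold change -0.41 ± 0.20, adjusted p = 0.137).

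Basement membrane and fibrillar genes were set beside each other within each culture. The basement membrane sum was 721, 840.4, 744 and 1287 CPM in AGX51 libraries 1 to 4, against 620.2, 745, 736 and 901 CPM in vehicle libraries 1 to 4, at ratios of 1.16, 1.13, 1.01 and 1.43. The fibrillar sum was 806, 1087, 1034 and 1657 CPM in AGX51 libraries 1 to 4, against 613, 843, 803.5 and 995 CPM in vehicle libraries 1 to 4, at ratios of 1.31, 1.29, 1.29 and 1.66. The fibrillar ratio was thus above the basement membrane ratio in each of the 4 cultures, and both were highest in culture 4. The medians over genes were close to each other, 0.43 for basement membrane and 0.45 for fibrillar genes on the log2 scale, while fold changes ranged from -1.34 to 0.70 among the first and from -0.41 to 0.92 among the second. In the class sums a few genes with many reads carry most of the weight. The basement membrane sum also holds Nid2, at means of 32.4 CPM with AGX51 against 82.4 CPM with vehicle. Nid2 was lower in 4 of 4 cultures and so pulls the basement membrane ratio down in each.

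**Figure D3:**
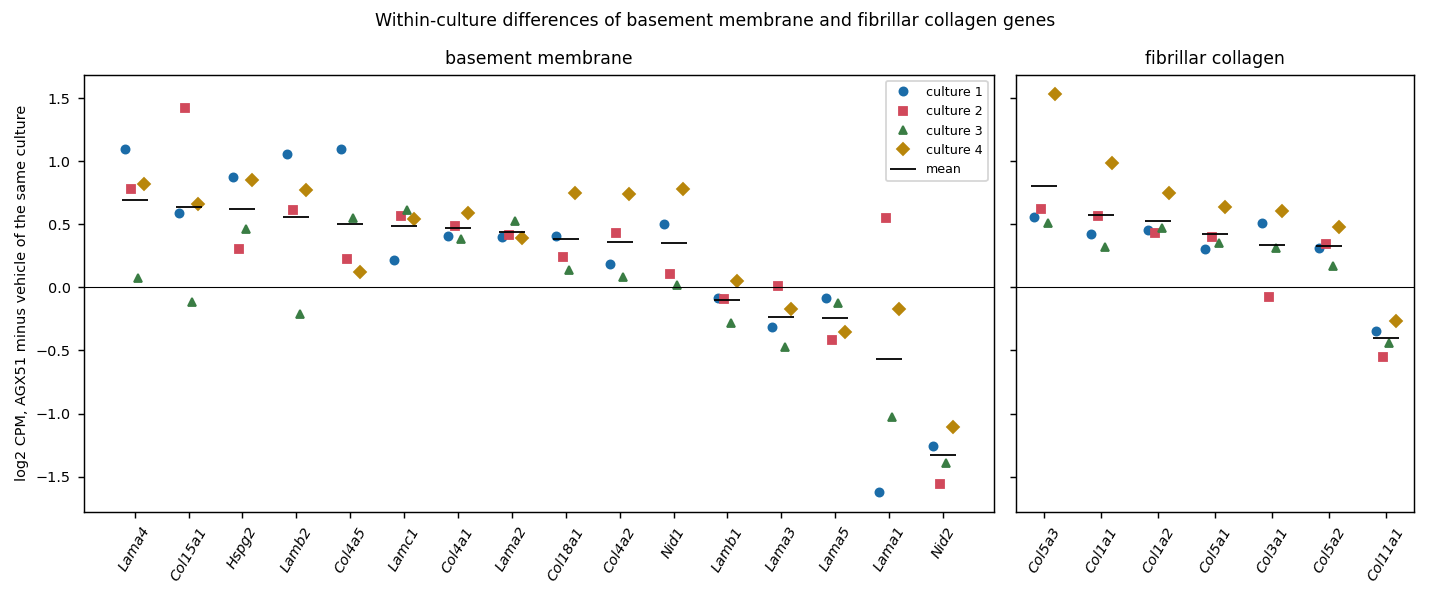
Difference in log2 CPM between the AGX51 and the vehicle library of the same culture for the basement membrane and fibrillar collagen genes; points are cultures and dashes their mean. Nid2 lies between -1.56 and -1.11 in all 4 cultures, whereas Lama1 has cultures on both sides of 0.

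Among the 12 other collagens tested, 2 were called higher (Col6a1 and Col6a2) and 2 lower (Col13a1 and Col25a1). Type VI collagen forms beaded filaments around cells, next to basement membranes. Col6a1 had 39.1, 40.4, 45.4 and 81.0 CPM in AGX51 libraries 1 to 4, against 21.1, 23.0, 24.3 and 40.1 CPM in vehicle libraries 1 to 4. Vehicle library 4 reached the level of AGX51 libraries 1 and 2, and all other vehicle libraries were lower (log2 fold change 0.93 ± 0.25, adjusted p = 0.0125). Col6a2 had 15.3, 11.5, 17.9 and 35.1 CPM in AGX51 libraries 1 to 4, against 7.46, 9.53, 10.8 and 11.1 CPM in vehicle libraries 1 to 4. The groups did not overlap, though by a small margin, and AGX51 library 4 was far above the rest (log2 fold change 1.06 ± 0.28, adjusted p = 0.0134). The third chain, Col6a3, had 17.2, 24.6, 25.9 and 51.9 CPM in AGX51 libraries, against 11.2, 15.5, 17.8 and 23.4 CPM in vehicle libraries, and just missed the call (log2 fold change 0.83 ± 0.30, adjusted p = 0.0501). With culture as a block Col6a3 was called higher (log2 fold change 0.77, adjusted p = 5.1e-05).

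Col13a1 encodes a transmembrane collagen found at sites where cells adhere. It had 12.5, 22.2, 12.2 and 10.7 CPM in AGX51 libraries 1 to 4, against 30.2, 38.7, 29.9 and 26.2 CPM in vehicle libraries 1 to 4. All AGX51 libraries lay below all vehicle libraries, and culture 2 was highest within each treatment (log2 fold change -1.14 ± 0.21, adjusted p = 0.00137). The call of Col13a1 held under every alternative tried. Col25a1, also a transmembrane collagen and known from neurons, had 2.35 to 4.66 CPM in AGX51 libraries, against 5.23 to 7.02 CPM in vehicle libraries (log2 fold change -0.71 ± 0.24, adjusted p = 0.0383). Its call was lost in 7 of the 8 fits that each left out 1 library, all but the one without AGX51 replicate 2, and without culture 4. Col8a1, a short-chain collagen, was not called and averaged 86.5 ± 29.0 CPM in AGX51 libraries, against 85.9 ± 18.3 CPM in vehicle libraries (mean ± SD, n = 4 each). Col12a1, a fibril-associated collagen named after its values were seen, was not called (log2 fold change 0.61 ± 0.27, adjusted p = 0.0981), and was called higher with culture as a block (log2 fold change 0.63, adjusted p = 0.00153). The other 5 were not called.

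The adhesive and matricellular genes held the most calls of any class, with 5 of 8 tested called higher, 3 not called and a median log2 fold change of 0.70. Matricellular proteins are secreted into the matrix and modulate how cells attach, without being structural. Sparc, a collagen-binding glycoprotein also called osteonectin, had 1098, 1723, 1468 and 2310.3 CPM in AGX51 libraries 1 to 4, against 708, 873, 880.5 and 1250.4 CPM in vehicle libraries 1 to 4. AGX51 library 1 lay under vehicle library 4, and the other AGX51 libraries lay above all vehicle libraries (log2 fold change 0.83 ± 0.22, adjusted p = 0.0112). Fn1, fibronectin, which integrins bind and cells assemble into fibrils, had 369.9, 517, 402 and 679 CPM in AGX51 libraries 1 to 4, against 209.7, 357, 235 and 336 CPM in vehicle libraries 1 to 4. The groups did not overlap, though AGX51 library 1 and vehicle library 2 were close (log2 fold change 0.79 ± 0.21, adjusted p = 0.0113). Sparc, Fn1, Dcn, Col6a1 and Col6a2 were the 5 genes called higher in each fit that left out 1 library.

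Tnc, tenascin C, a large glycoprotein of remodeling tissue, had 66.1, 81.2, 68.9 and 111 CPM in AGX51 libraries 1 to 4, against 43.4, 55.2, 50.7 and 66.7 CPM in vehicle libraries 1 to 4. AGX51 library 1 lay just under vehicle library 4, and the rest lay above all vehicle libraries (log2 fold change 0.60 ± 0.17, adjusted p = 0.0161). The call of Tnc was lost without AGX51 replicate 4, vehicle replicate 1 or culture 4, and with upper quartile or total scaling. Postn, periostin, which binds collagen and is made by fibroblasts, was called higher (log2 fold change 0.87 ± 0.30, adjusted p = 0.0429), as was Sparcl1, a relative of Sparc (log2 fold change 0.92 ± 0.31, adjusted p = 0.0389). Both of these calls were lost without AGX51 replicate 3 or 4 or vehicle replicate 1, 2 or 3, and that of Postn also with DESeq2 or upper quartile scaling. Of the thrombospondins, calcium-binding glycoproteins of the matrix, Thbs1 averaged 271 ± 71.3 CPM in AGX51 libraries, against 369 ± 105 CPM in vehicle libraries (mean ± SD, n = 4 each), was lower in 4 of 4 cultures and was not called (log2 fold change -0.45 ± 0.21, adjusted p = 0.121). Thbs2 was higher in 4 of 4 cultures and not called (log2 fold change 0.42 ± 0.27, adjusted p = 0.25). With culture as a block, both thrombospondins passed the adjusted p but not the fold (log2 fold change -0.44, adjusted p = 0.000626 for Thbs1, and 0.41, adjusted p = 0.00203 for Thbs2).

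All 4 matrix proteoglycans tested had positive fold changes in 4 of 4 cultures, and 2 were called higher; the class median of 0.86 was above that of every other class. Dcn, decorin, a small proteoglycan that coats collagen fibrils, had 64.6, 67.2, 88.5 and 148 CPM in AGX51 libraries 1 to 4, against 34.0, 38.6, 47.4 and 68.7 CPM in vehicle libraries 1 to 4. AGX51 libraries 1 and 2 lay just under vehicle library 4 (log2 fold change 0.97 ± 0.26, adjusted p = 0.0132). Bgn, biglycan, its close relative, had 218, 271, 263 and 455 CPM in AGX51 libraries 1 to 4, against 141, 176, 155 and 227 CPM in vehicle libraries 1 to 4. AGX51 library 1 lay just under vehicle library 4 and the rest above all vehicle libraries (log2 fold change 0.79 ± 0.21, adjusted p = 0.0119); the call of Bgn was lost without AGX51 replicate 4. Vcan, versican, a large hyaluronan-binding proteoglycan, was not called (log2 fold change 0.85 ± 0.37, adjusted p = 0.0936), and was called with culture as a block (log2 fold change 0.73, adjusted p = 0.00252). Lum, lumican, was measured at 0.887 to 3.96 CPM in AGX51 libraries, against 0.581 to 2.39 CPM in vehicle libraries, and was not called (adjusted p = 0.213).

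**Figure D4:**
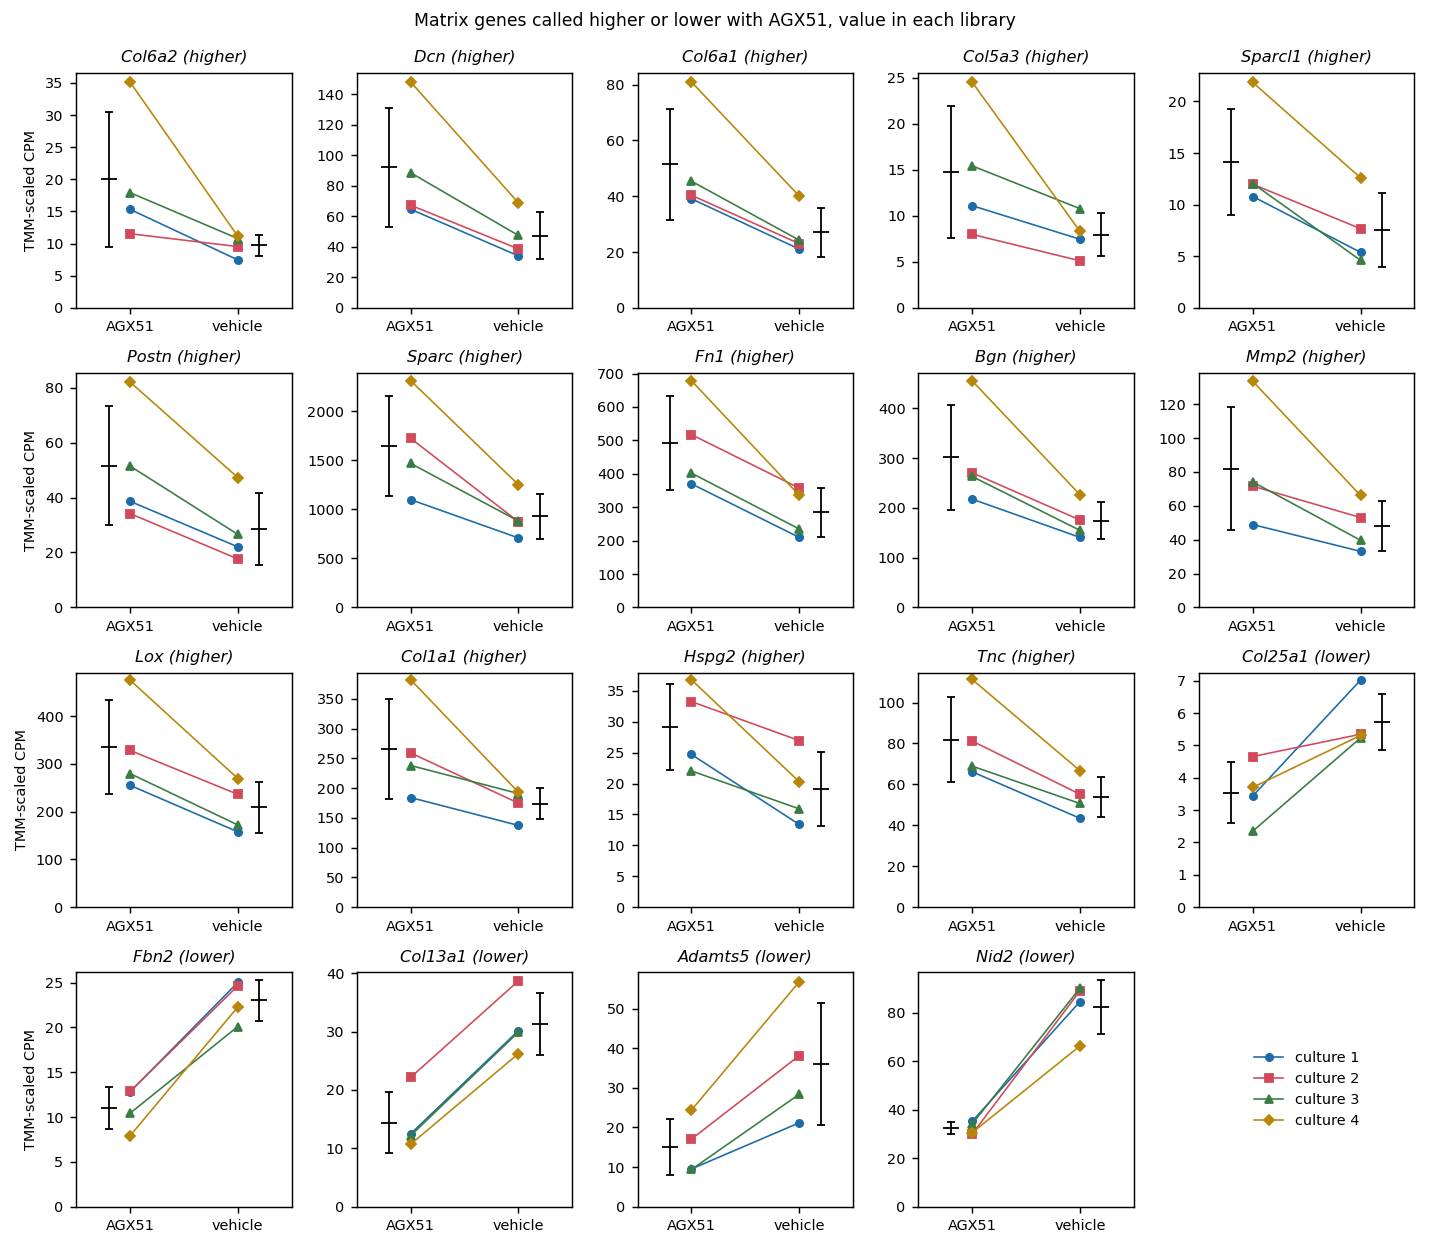
TMM-scaled CPM in each library for the 19 called members; lines join the AGX51 and vehicle library of a culture, and bars show mean ± SD (n = 4). Culture 4 has the highest AGX51 value in each of the 14 genes called higher, and Nid2, Fbn2, Col13a1 and Col25a1 show no overlap between groups.

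Elastic fibre and crosslinking genes went in both directions, with 1 of 13 called higher (Lox), 1 lower (Fbn2) and a median of -0.14. Fbn2, fibrillin 2, a microfibril protein best known from developing tissue, had 12.8, 12.9, 10.4 and 7.92 CPM in AGX51 libraries 1 to 4, against 25.0, 24.6, 20.1 and 22.3 CPM in vehicle libraries 1 to 4. No libraries overlapped between the groups (log2 fold change -1.08 ± 0.17, adjusted p = 0.000507), and the call held under every alternative tried. Its paralog Fbn1, chosen after its values were seen, averaged 36.9 ± 17.3 CPM in AGX51 libraries, against 31.3 ± 6.26 CPM in vehicle libraries (mean ± SD, n = 4 each), and was not called (log2 fold change 0.24 ± 0.26, adjusted p = 0.504). Lox, lysyl oxidase, which crosslinks collagen and elastin, had 255, 328, 279.6 and 475 CPM in AGX51 libraries 1 to 4, against 158, 236, 172 and 269 CPM in vehicle libraries 1 to 4. AGX51 library 1 lay under vehicle library 4, and the other AGX51 libraries above every vehicle library (log2 fold change 0.68 ± 0.20, adjusted p = 0.0225). Without AGX51 replicate 4, vehicle replicate 1 or vehicle replicate 3, Lox was not called. Loxl2, a lysyl oxidase relative, and Fbln2, fibulin 2, were each higher in 4 of 4 cultures and not called (0.46 ± 0.20, adjusted p = 0.0987, and 0.39 ± 0.19, adjusted p = 0.141, on the log2 scale).

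Of the 11 metalloproteinases, 1 was called higher and 10 were not called, and the median log2 fold change was -0.05. Mmp2, gelatinase A, which cuts denatured collagen and type IV collagen, had 48.9, 71.6, 74.1 and 133 CPM in AGX51 libraries 1 to 4, against 33.1, 53.1, 39.7 and 66.1 CPM in vehicle libraries 1 to 4. AGX51 library 4 stood alone at the top and AGX51 library 1 lay within the vehicle range (log2 fold change 0.78 ± 0.27, adjusted p = 0.0414). This call was lost in the fits without AGX51 replicate 2, 3 or 4 or without vehicle replicate 1, 2 or 3, as well as with DESeq2, limma-voom and upper quartile scaling. Mmp14, the membrane-bound enzyme that activates the product of Mmp2, had 38.8, 57.4, 48.5 and 75.7 CPM in AGX51 libraries, against 47.8, 59.0, 57.6 and 78.6 CPM in vehicle libraries. It was lower in 4 of 4 cultures by less than the spread between libraries (log2 fold change -0.14 ± 0.19, adjusted p = 0.614). Mmp9, gelatinase B, averaged 10.5 ± 0.996 CPM in AGX51 libraries, against 10.8 ± 2.29 CPM in vehicle libraries (log2 fold change -0.05 ± 0.18, adjusted p = 0.853). Mmp3, stromelysin 1, was chosen after its values were seen because the block changed its call: it was not called without the block (log2 fold change 0.92 ± 0.43, adjusted p = 0.117) and was called higher with it (log2 fold change 0.87, adjusted p = 0.00021).

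The 3 metalloproteinase inhibitors were each higher with AGX51 in 4 of 4 cultures and were not called; 1 of them, Timp2, was called higher with culture as a block (log2 fold change 0.62, adjusted p = 1.1e-05). Timp1 had 708, 599.8, 935 and 1319 CPM in AGX51 libraries, against 537, 471, 547 and 795 CPM in vehicle libraries (log2 fold change 0.60 ± 0.22, adjusted p = 0.0574). Timp2 had 115, 147, 149.6 and 322 CPM in AGX51 libraries, against 75.4, 102, 112 and 173 CPM in vehicle libraries (log2 fold change 0.67 ± 0.29, adjusted p = 0.101). In both genes AGX51 library 4 was the highest, and AGX51 libraries 1 and 2 lay within the vehicle range. AGX51 library 3 lay above the vehicle range for Timp1 and within it for Timp2. Timp3, which stays bound to the matrix, was not called (log2 fold change 0.53 ± 0.28, adjusted p = 0.16). With culture as a block, Timp1 and Timp3 passed the adjusted p but not the fold (log2 fold change 0.56, adjusted p = 0.000471 for Timp1, and 0.52, adjusted p = 6.96e-06 for Timp3).

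Among the 12 ADAMTS proteases tested, secreted enzymes with thrombospondin repeats, 1 was called lower and 11 were not called. Adamts5, an aggrecanase that cuts large proteoglycans such as versican, had 9.54, 17.1, 9.40 and 24.4 CPM in AGX51 libraries 1 to 4, against 21.2, 38.1, 28.4 and 56.7 CPM in vehicle libraries 1 to 4. The groups overlapped because cultures differed widely, with culture 4 highest within each treatment, but each culture was lower with AGX51 (log2 fold change -1.25 ± 0.33, adjusted p = 0.0117). Adamts1, a relative that also cuts proteoglycans, averaged 21.1 ± 5.37 CPM in AGX51 libraries, against 20.1 ± 7.32 CPM in vehicle libraries (mean ± SD, n = 4 each), and its log2 fold change was 0.08 ± 0.24. Adamts10 was not called (log2 fold change 0.50 ± 0.22, adjusted p = 0.0954). The 3 ADAMTS-like genes tested, which lack the protease domain, were not called, with Adamtsl5 at 0.41 and Adamtsl4 at 0.08; Adamtsl1, named after its values were seen, was called lower only with culture as a block (log2 fold change -0.81, adjusted p = 0.0355). Col4a3bp, matched by name, encodes a ceramide transfer protein and was not called (log2 fold change 0.14 ± 0.11, adjusted p = 0.351).

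The start regions of called members were read for E-boxes, the letters CANNTG that E-proteins bind in DNA as a general rule. RefSeq windows were found for 70 members (78 windows), and none was used for the other 41. CANNTG, which reads the same on both strands, stood in 64.1% of member windows, against 72.3% of 32851 windows of all genes. CAGCTG, 1 of its forms, stood in 23.1% of member windows, against 16.3% of all, and CACCTG on either strand, another form, in 17.9%, against 20.2% of all. TATAAA on either strand stood in 12.8% of member windows, against 13.6% of all. A match is a description of letters and not of binding. In the 11 windows of 8 genes called higher, CANNTG stood in 54.5%, CAGCTG in 27.3% and CACCTG in 9.09%, and in the 2 windows of genes called lower CAGCTG stood in 0. The windows of Bgn, Col5a3 and Sparc, the genes called higher that held CAGCTG, are shown as examples of the match, with CAGCTG in capitals. The windows are chrX:73483351-73483650 (plus strand) for Bgn, chr9:20815018-20815317 (minus strand) for Col5a3 and chr11:55420031-55420330 (minus strand) for Sparc.
Bgn: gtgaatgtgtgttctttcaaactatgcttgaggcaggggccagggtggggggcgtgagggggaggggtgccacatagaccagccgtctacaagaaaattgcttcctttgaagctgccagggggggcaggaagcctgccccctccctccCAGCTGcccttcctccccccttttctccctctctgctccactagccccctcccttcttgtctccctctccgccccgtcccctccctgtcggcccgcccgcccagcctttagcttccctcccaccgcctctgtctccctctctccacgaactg
Col5a3: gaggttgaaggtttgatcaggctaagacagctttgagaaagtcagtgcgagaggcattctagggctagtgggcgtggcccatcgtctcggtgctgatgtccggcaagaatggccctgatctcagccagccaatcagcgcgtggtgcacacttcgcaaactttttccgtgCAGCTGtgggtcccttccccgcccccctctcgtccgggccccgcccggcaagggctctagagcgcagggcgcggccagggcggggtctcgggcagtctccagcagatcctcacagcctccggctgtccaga
Sparc: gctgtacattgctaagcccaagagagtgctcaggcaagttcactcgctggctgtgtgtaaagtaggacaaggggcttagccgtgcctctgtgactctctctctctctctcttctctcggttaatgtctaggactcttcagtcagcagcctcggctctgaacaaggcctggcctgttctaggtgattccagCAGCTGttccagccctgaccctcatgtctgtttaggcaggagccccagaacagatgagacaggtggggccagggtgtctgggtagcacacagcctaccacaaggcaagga
CAGCTG stood in 0 of 13 windows of basement membrane genes and 2 of 7 windows of fibrillar collagens, CACCTG in 2 of 13 and 0 of 7, and CANNTG in 53.8% and 57.1%.

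Genes that fold, bind or cut matrix proteins were counted beside the members. Of 21 collagen folding and processing genes tested, 1 was called higher and 20 were not called: Serpinh1, the collagen chaperone HSP47, averaged 973 ± 232 CPM in AGX51 libraries, against 616 ± 110.5 CPM in vehicle libraries (log2 fold change 0.66 ± 0.17, adjusted p = 0.0123). The prolyl hydroxylase genes P4hb, P4ha1 and P4ha2 passed the adjusted p but not the fold, at log2 fold changes of 0.48, 0.51 and 0.47 (adjusted p = 0.00264, 0.0091 and 0.0143). So did Bmp1, a procollagen protease (log2 fold change 0.52 ± 0.18, adjusted p = 0.045), and, in the other direction, Plod2, a lysyl hydroxylase (log2 fold change -0.33 ± 0.09, adjusted p = 0.0168), both named after their values were seen. Of 23 matrix receptors, 2 were called higher and 1 lower. Itgav, the integrin alpha V chain that binds fibronectin, was higher (log2 fold change 0.63 ± 0.21, adjusted p = 0.0368), as was Sdc2, the heparan sulfate proteoglycan syndecan 2 (log2 fold change 0.60 ± 0.19, adjusted p = 0.0288). Itga1, the alpha chain of a collagen-binding integrin, was lower (log2 fold change -1.41 ± 0.33, adjusted p = 0.00625), and Itgb3, the beta 3 integrin chain, passed the adjusted p but not the fold (log2 fold change -0.56 ± 0.18, adjusted p = 0.0304).

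Of 15 other genes of matrix proteolysis, 3 were called higher and 2 lower. Plat, tissue plasminogen activator, had 8.60, 7.54, 5.58 and 6.64 CPM in AGX51 libraries 1 to 4, against 23.1, 25.3, 25.9 and 24.7 CPM in vehicle libraries 1 to 4. The groups of Plat lay far apart (log2 fold change -1.81 ± 0.15, adjusted p = 9.99e-06). Adam10, a membrane sheddase, was lower as well (log2 fold change -0.78 ± 0.13, adjusted p = 0.000691). Htra1, a secreted serine protease, and Ctsb, cathepsin B of lysosomes, were higher (log2 fold change 0.96 ± 0.22, adjusted p = 0.00577 for Htra1, log2 fold change 0.63 ± 0.17, adjusted p = 0.0151 for Ctsb). Ctsk, cathepsin K, a collagen-cutting enzyme named after its values were seen, was the third gene called higher (log2 fold change 0.81 ± 0.27, adjusted p = 0.0403).

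The 20 members that were not tested had 20 to 72 counts over all 8 libraries and at most 2.19 CPM in any library, and 8 of them had no count in at least 1 library. They comprised 8 other collagens, 4 ADAMTS proteases, 3 fibrillar collagens, and 1 gene each of the basement membrane, matricellular, elastic fibre, ADAMTS-like and name-only groups. They were left out of the main test for their low counts. With no count filter all 111 members were tested and none of these 20 was called, though so few counts limit what that fit could detect. Exons of 24 tested members overlap exons of an antisense gene in GENCODE M21, among them the called genes Fn1, Tnc, Nid2, Fbn2 and Lox, and unstranded reads from such stretches cannot be told apart by gene.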

How the data were processed

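Undifferentiated spermatogonia cultures from 4 mice, each given AGX51 and vehicle, were measured by RNA-seq primed at the poly(A) tail, giving 4 libraries per group. Raw count values per gene were made by the authors with the RNAsik pipeline; the processing notes of the submitters list GRCm38 and the tools featureCounts, STAR, Salmon, limma and edgeR with no version. The deposited CPM values are the authors' counts scaled by each library's total over the listed genes. The deposited log2 fold change and average log2 expression columns, and the deposited p-value and FDR columns, hold the authors' limma-voom comparison in Degust and were not used. The filter behind the 17167 listed genes and the use of strand in counting are not given in the sources used here. For 22 genes a name that a spreadsheet had turned into a date was restored from the gene ID.

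Counts were analysed in R 4.3.3 with edgeR 4.0.16: filterByExpr (minimum count 10, minimum total 15), TMM scaling and the quasi-likelihood F test between AGX51 and vehicle, adjusted by Benjamini-Hochberg over 14428 genes; 2739 genes were not tested. Calls required both an adjusted p below 0.05 and a change of more than 1.5-fold. Standard errors were taken as the absolute log2 fold change over the root of the F statistic. Log2 CPM for within-culture differences used a prior count of 2. Depth was 4303318 to 9586105 counts per library, which limits genes with few counts most. The code was tested on simulated data.

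In the labels a shared replicate number goes with a shared culture letter, and libraries are paired in this way. Deviations from the group means had correlations of 0.113 to 0.444 within a culture and of -0.287 to 0.0951 between cultures. The study's methods have no culture term, so the test has none and its adjusted p values leave out the pairing. Values with culture as a block are printed where a call differs, and for some genes where it does not. Genes whose call did not change could still pass the adjusted p only with the block. Most named genes that did so went up. Examples were Nid1 (log2 fold change 0.36, adjusted p = 0.00918), Loxl2 (0.46, adjusted p = 0.000152) and Col5a2 (0.33, adjusted p = 0.00166). Col18a1 (0.40, adjusted p = 0.00293), Col3a1 (0.35, adjusted p = 0.00497) and Fbln2 (0.35, adjusted p = 0.0081) also did. The same held for Adamtsl5, Adamts10, Col4a5, Lama2 and Col15a1 (adjusted p = 0.0177, 0.0197, 0.0263, 0.0436 and 0.0474). Col11a1 (-0.40, adjusted p = 0.00107) and Thbs1, given above, went down. No libraries were duplicates (chi-square per degree of freedom between replicates 6.28 to 20.1). Coordinates are GENCODE M21 on GRCm38, and start regions are RefSeq windows on GRCm38.p6.

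The members, classes, marker lists and tests were chosen with earlier results of these data known. Per-library values were given for called basement membrane and fibrillar genes and for the 3 called genes with the smallest p in each other class; other tested basement membrane and fibrillar genes, up to 2 uncalled genes with the highest mean level per other class and up to 4 genes with the smallest adjusted p per related list were named. Genes of the marker lists, and any other gene, were named after their values were seen. The values of 1 tested member are not reported here, though it stays in the fits, counts and sums. Alternatives tried were scaling by RLE, the upper quartile or library totals, no filter, a stricter filter (30 counts in 4 libraries), DESeq2 1.42.0, limma-voom (limma 3.58.1), the culture block, a fibroblast marker covariate, glmTreat, adjusted p alone, each library left out and culture 4 left out.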

Additional observations from a re-analysis of the deposited data

Results flagged for a closer look

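Single libraries were checked against the other libraries of their group by the gap to the nearest library over the group's range, for the 55 member genes named by rule, in 110 groups of 4 libraries. The gap passed Dixon's critical value in 12 groups, and chance passes about 5% of groups.

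Culture 4 accounts for 9 of these. In AGX51 library 4 the level was far above the other AGX51 libraries for Col18a1 (72.8 CPM), Col6a1 (81.0 CPM), Lama4 (17.2 CPM), Nid1 (284 CPM), Sparcl1 (21.8 CPM), Timp2 (322 CPM) and Vcan (37.2 CPM). In vehicle library 4, Col6a1 was far above (40.1 CPM) and Lama3 far below (5.93 CPM) the other vehicle libraries. Of these genes, Col6a1 and Sparcl1 were called higher, and the others were not called. With both libraries of this culture left out, 12 members were called higher, 10 of them among the 14, and 4 lower, of 88 tested.

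The other 3 were spread over cultures 1 to 3. Col13a1, called lower, stood at 22.2 CPM in AGX51 library 2, the highest of its group and below every vehicle library. Col25a1, also called lower, stood at 7.02 CPM in vehicle library 1, above the rest of its group. Mmp9, which was not called, was highest in vehicle library 3 (14.2 CPM).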

How the results depend on the processing

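The 5 member genes called lower kept their direction under every alternative run, and Nid2, Fbn2 and Col13a1 kept their call as well. The 14 genes called higher kept their direction under every alternative, but their number moved. Against 14 called higher, upper quartile scaling gave 9, the fibroblast marker covariate 30 and glmTreat 0; glmTreat called 3 lower, against 5. Basement membrane genes called higher numbered 1, against 2 with RLE scaling, no count filter, the stricter filter and DESeq2, 0 with upper quartile scaling, total scaling and glmTreat, 5 with the covariate, 3 by adjusted p alone and 0 with culture 4 left out. Fibrillar genes called higher numbered 2, against 1 with upper quartile scaling, total scaling and limma-voom, and 0 with glmTreat and with culture 4 left out. Leaving out each library in turn gave 5 to 25 members called higher and 4 to 5 lower, 0 to 4 basement membrane genes higher, and 0 to 3 fibrillar genes higher. Leaving out 1 library leaves fewer samples and also removes 1 side of a culture pair, in a test without a culture term. Members called higher numbered 25 without vehicle replicate 4, 5 without AGX51 replicate 4 and 12 without both. The cause of these shifts was not tested.

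With culture as a replicate block, which pairs the libraries, 19 members were called higher and 6 lower, 2 basement membrane genes higher and 1 fibrillar gene higher. The block added Col6a3, Col12a1, Lama4, Timp2, Mmp3 and Vcan to those called higher and Adamtsl1 to those called lower, dropped Col1a1, and changed no other call. A block with both libraries of culture 4 left out, chosen after seeing the data, gave 15 higher and 5 lower, with 2 basement membrane and 0 fibrillar genes higher. AGX51 library 2 had the fewest counts (4303318), and without it 92 members passed the count filter, against 91 with it. The same 92 was reached without AGX51 replicate 3 or 4 and without vehicle replicate 2 or 4, so this gain was not particular to that library.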
